A study of Mus musculus with 22 samples.

Results

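The genes that write, copy and remove DNA methylation were followed in mouse embryonic stem cells (ESCs) of the line E14 after treatment with 10 chromatin inhibitors. The 10 genes examined, of 18487 in the deposited table, were taken by name, for their function in DNA methylation: *Dnmt1*, *Dnmt3a*, *Dnmt3b*, *Dnmt3l*, *Uhrf1*, *Tet1*, *Tet2*, *Tet3*, *Tdg* and *Mbd3*. They were chosen with earlier results of these data known. RNA-seq was performed on 22 libraries in 11 groups of 2, 10 of them treated with a single compound and 1 labelled NC, the only group without a compound and the reference for all comparisons. Bromosporine binds bromodomains and Valproate inhibits histone deacetylases. CPTH2 and Garcinol inhibit histone acetyltransferases, Chaetocin and UNC0379 inhibit histone lysine methyltransferases, and MS023 inhibits type I arginine methyltransferases. IOX1 inhibits 2-oxoglutarate oxygenases, the enzyme class to which the TET proteins belong. DZNep blocks the hydrolysis of S-adenosylhomocysteine, the product that builds up when methyl groups are transferred. The label OICR names no full compound. All groups were E14 cells with no genetic change named in the labels, a single line grown on serum and LIF in the study's methods, and neither dose nor exposure time was given. Whether the 2 libraries of a group came from separate cultures was not stated, so p-values measure only the spread between these libraries.

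In mammals cytosine methylation at CpG dinucleotides is set up by the de novo methyltransferases DNMT3A and DNMT3B, with DNMT3L as a partner that has no catalytic activity of its own. DNMT1, brought to replicating DNA by UHRF1, copies the pattern to the daughter strand. The TET enzymes oxidize methylcytosine, TDG excises the oxidized bases, and MBD3 is a subunit of the NuRD chromatin remodelling complex. ESCs express nearly all of this machinery, and are known for turning methylation over in both directions.

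*Dnmt3l* responded most, and *Tet3* was the only other gene of the 10 to be called in the main fit, which holds group means only. *Dnmt3l* rose with DZNep, Valproate and Bromosporine, and *Tet3* fell with DZNep. *Dnmt3a* and *Dnmt3b* lay on opposite sides of NC with DZNep and OICR without passing the test in the main fit. With the number in the library titles added to the fit, *Dnmt3a* was called with DZNep and OICR, and *Dnmt3b* with DZNep. *Dnmt1*, the maintenance enzyme, stayed between 12666 and 15612 in all 22 libraries. To show the sequence at the starts of the genes that moved, the 300 bases around a RefSeq start (250 before and 50 after, assembly GRCm38.p6) are given for *Dnmt3l*, which rose, for *Tet3*, which fell, and for *Dnmt3b*, the catalytic de novo gene whose level was most like that of *Dnmt3l* across the groups. They are written 5′ to 3′ on the strand of the gene, with each CpG in capitals. The windows are chr10:78042037-78042336 on the plus strand for *Dnmt3l*, chr6:83441629-83441928 on the minus strand for *Tet3* and chr2:153649199-153649498 on the plus strand for *Dnmt3b*.
Dnmt3l: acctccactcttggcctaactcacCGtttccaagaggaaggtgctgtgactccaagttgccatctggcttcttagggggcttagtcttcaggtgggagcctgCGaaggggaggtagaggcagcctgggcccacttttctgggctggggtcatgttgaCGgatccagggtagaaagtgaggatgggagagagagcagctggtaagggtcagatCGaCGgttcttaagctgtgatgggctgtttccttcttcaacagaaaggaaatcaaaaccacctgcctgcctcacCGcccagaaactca
Tet3: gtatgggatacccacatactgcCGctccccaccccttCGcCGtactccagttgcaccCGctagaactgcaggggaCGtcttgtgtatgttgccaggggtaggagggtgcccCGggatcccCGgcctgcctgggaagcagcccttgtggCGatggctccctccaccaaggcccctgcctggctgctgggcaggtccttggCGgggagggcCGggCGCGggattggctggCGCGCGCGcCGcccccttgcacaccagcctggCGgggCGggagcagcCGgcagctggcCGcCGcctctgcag
Dnmt3b: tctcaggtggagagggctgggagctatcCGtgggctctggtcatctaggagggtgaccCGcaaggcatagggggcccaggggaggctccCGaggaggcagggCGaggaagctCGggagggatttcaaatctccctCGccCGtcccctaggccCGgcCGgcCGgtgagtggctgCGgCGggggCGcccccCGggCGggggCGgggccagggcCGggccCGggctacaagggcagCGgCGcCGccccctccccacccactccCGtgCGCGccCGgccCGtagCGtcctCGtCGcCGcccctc
The first *Dnmt3l* window held 6 CpG, against 22 for *Tet3* and 30 for *Dnmt3b*. RefSeq lists 2 further *Dnmt3l* starts, at chr10:78049592-78049891 and chr10:78055085-78055384, and their windows held 4 and 3 CpG. Over 32851 windows of the same length the median was 7 CpG, with quartiles of 3 and 20. *Dnmt3l* was therefore the only gene of the 10 whose windows all lay below that median, since each of the others had at least 1 window with 17 or more. The highest count was 57, at *Tet2*. Of the motifs searched on both strands, the GC box GGGCGG occurred 1 time in the first *Dnmt3l* window, 2 times at *Tet3* and 4 times at *Dnmt3b*, and 35.7% of all windows held it. The E2F core TTTNNCGC (5.17% of windows), the E-box CACGTG (7.15%) and the TATA box TATAAA (13.6%) were at none of these 3 windows. The further *Dnmt3l* window at chr10:78049592-78049891 held 2 GC boxes and 1 E-box, and that at chr10:78055085-78055384 held none of these motifs. A GC box contains a CpG, so both counts rest in part on the same letters. The transcript start used in these cells was not measured.

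**Figure D1:**
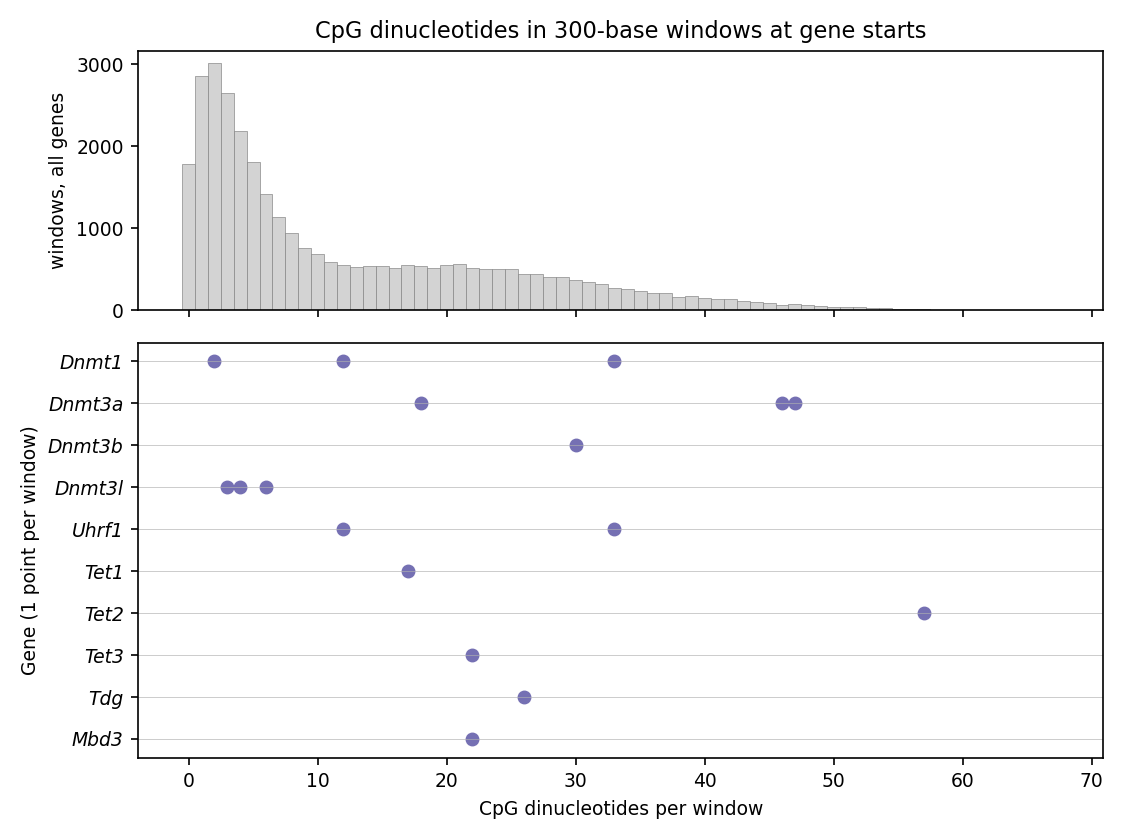
CpG dinucleotides per 300-base window at RefSeq gene starts, as a histogram over all 32851 windows (upper panel) and as 1 point per window for the 10 genes (lower panel). The 3 *Dnmt3l* windows sit at 3, 4 and 6 CpG, below the median of 7, and the *Tet2* window lies at 57.

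The deposited values were normalized to a common distribution and rounded, so the totals per library (38403767 to 38419709) do not show depth, which is unknown here. A value of 409 was the median gene. As a check of the cell type, all 10 ESC markers were tested and above 0 in every library, with a summed value of 209156 to 307233. The fibroblast gene *Dcn* was at 0 in all 22 libraries, *Lum* in 19 and *Postn* in 12, and the sum of the 7 fibroblast markers was 27 to 1874. The sum of 5 primitive endoderm markers was 219 to 739 and that of 5 trophoblast markers 189 to 1257. A further feature of the whole series was a shift between libraries numbered 1 and 2 in their titles, and its effect on these genes is described after the comparisons. Values of 10 or more in 2 or more libraries were required for testing, which 17275 of the 18487 genes met, all 10 methylation genes among them.

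Levels of different genes were compared per kilobase of the longest transcript. In NC, the maintenance pair was high, with means of 6022 per kilobase for *Uhrf1* and 2508 for *Dnmt1*. *Mbd3* came between them at 3379. *Tet1*, the main TET enzyme of ESCs, was at 749 per kilobase and *Tdg* at 722, while *Tet2* reached 276 and *Dnmt3b* 221. The lowest levels per kilobase belonged to *Dnmt3a* (61.2), *Tet3* (50.6) and *Dnmt3l* (13.4). The 2 called genes were thus the lowest of the 10 in NC, and RSEM assigns reads to all exons and untranslated regions of a gene together.

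Compounds were set against NC with limma on log2(value + 1), in a single fit of all 22 libraries. Calls required an adjusted p (Benjamini-Hochberg, over all tested genes) below 0.05 together with a fold change above 2. A fold change on this scale is a difference of mean log values, which is not the ratio of the group means, and for a gene as low as *Dnmt3l* its size depends on the added 1. All 10 comparisons share the same 2 NC libraries, so their values stand side by side here and are not independent of each other. Of the 10 genes, DZNep changed 2, against 11.4% of all tested genes. Valproate changed 1 (background 5.28%) and Bromosporine 1 (3.34%). No gene of the 10 was called with the other compounds, where few genes of any kind passed: 0.973% with MS023, 0.388% with OICR, 0.116% with IOX1, 0.0174% with Chaetocin, 0.00579% with CPTH2, 0.00579% with Garcinol and 0% with UNC0379. With UNC0379, for which limma gave 0 calls, 1051 genes had an unadjusted p below 0.05. Across all compounds, 2 of the 10 genes were called at least once, beside 16.3% of all tested genes. With 2 libraries against 2, an exact permutation test of a single gene cannot go below a two-sided p of 0.333, so the adjusted p-values rest on the spread shared across the fit.

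**Figure D2:**
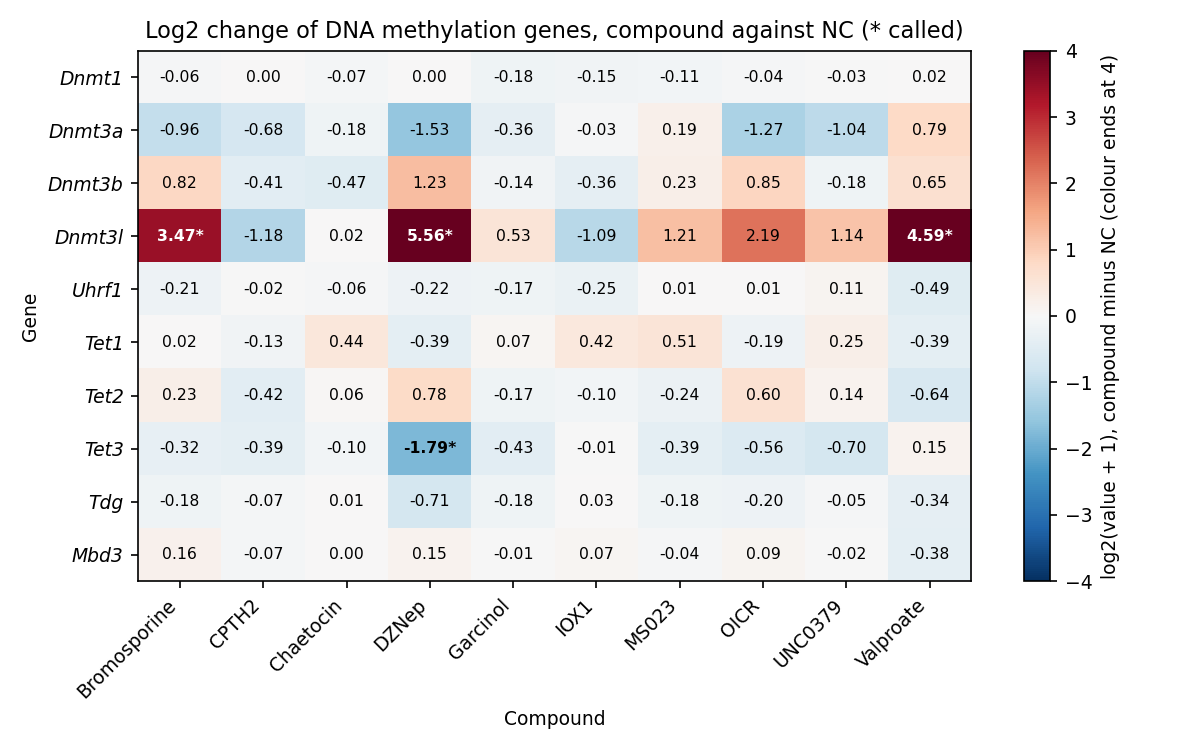
Log2 change of each gene (rows) with each compound against NC (columns), on the log2(value + 1) scale, with red for higher and blue for lower than NC and the colour ending at 4. Asterisks mark the 4 calls, which are *Dnmt3l* at 3.47, 5.56 and 4.59 with Bromosporine, DZNep and Valproate and *Tet3* at -1.79 with DZNep.

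*Dnmt3l* (ENSMUSG00000000730, chromosome 10, 78041947 to 78063622, plus strand, GRCm38) encodes the catalytically inactive partner of the de novo enzymes. It was near the bottom of the scale in NC, at 9 and 40. With DZNep it reached 1487 and 612, with Valproate 442 and 536, and with Bromosporine 160 and 311. All 6 of these libraries lay above both NC libraries, and above all libraries of the other 8 groups.
The log2 change was 5.56 with DZNep (SE 0.92, 95% interval 3.58 to 7.54, n = 2 against 2), a 47.2-fold rise (limma, Benjamini-Hochberg adjusted p 0.000797). Valproate raised it 24.1-fold (log2 4.59, interval 2.61 to 6.57, limma adjusted p 0.0065). The rise with Bromosporine was 11.1-fold (log2 3.47, interval 1.49 to 5.44, limma adjusted p 0.0443), just inside the threshold. The NC values themselves lay far apart for so low a gene, and the sizes depend on them. Taken within libraries numbered 1 and within those numbered 2, the log2 change was 7.22 and 3.90 with DZNep, 5.47 and 3.71 with Valproate, and 4.01 and 2.93 with Bromosporine, positive in each.
Leaving out single libraries moved these sizes. The DZNep change was 4.54 without NC replicate 1, 6.58 without NC replicate 2, 4.92 without DZNep replicate 1 and 6.20 without DZNep replicate 2, and it was called each time. For Valproate the log2 change fell to 3.57 without NC replicate 1, where the call was lost (limma adjusted p 0.0781), and was 5.61 without NC replicate 2. The Bromosporine call was lost without NC replicate 1 (log2 2.45, limma adjusted p 0.346), without Bromosporine replicate 1 (adjusted p 0.115) and without Bromosporine replicate 2 (adjusted p 0.211).

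In the order of group means, DZNep (1050), Valproate (489), Bromosporine (235.5) and OICR (99) came first. DZNep, Valproate and Bromosporine were each separated from the next group without overlap, whereas OICR overlapped UNC0379. OICR libraries were at 60 and 138, above both NC libraries, with a log2 change of 2.19 (interval 0.21 to 4.16) that did not pass (limma adjusted p 0.393). Further down, MS023 (42 and 50) and UNC0379 (22 and 85) overlapped, as did the groups below. The lowest values were 4 and 15 with CPTH2 and 4 and 17 with IOX1. The exons of *Dnmt3l* overlap *Aire*, a transcriptional regulator of the thymus, on the opposite strand, and the labels do not describe a kit that keeps strand. *Aire* was at 48 and 26 in NC, 108 and 24 with DZNep, 13 and 114 with Valproate and 34 and 92 with Bromosporine, below *Dnmt3l* in each of these treated libraries.
By Pearson correlation of the group means on the log2 scale, the patterns most like that of *Dnmt3l* among 12870 genes were those of *Gpr160* (r = 0.958), *Ppil2* (0.952) and *Champ1* (0.945). These describe 11 groups that share a reference distribution, and no test was made.

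**Figure D3:**
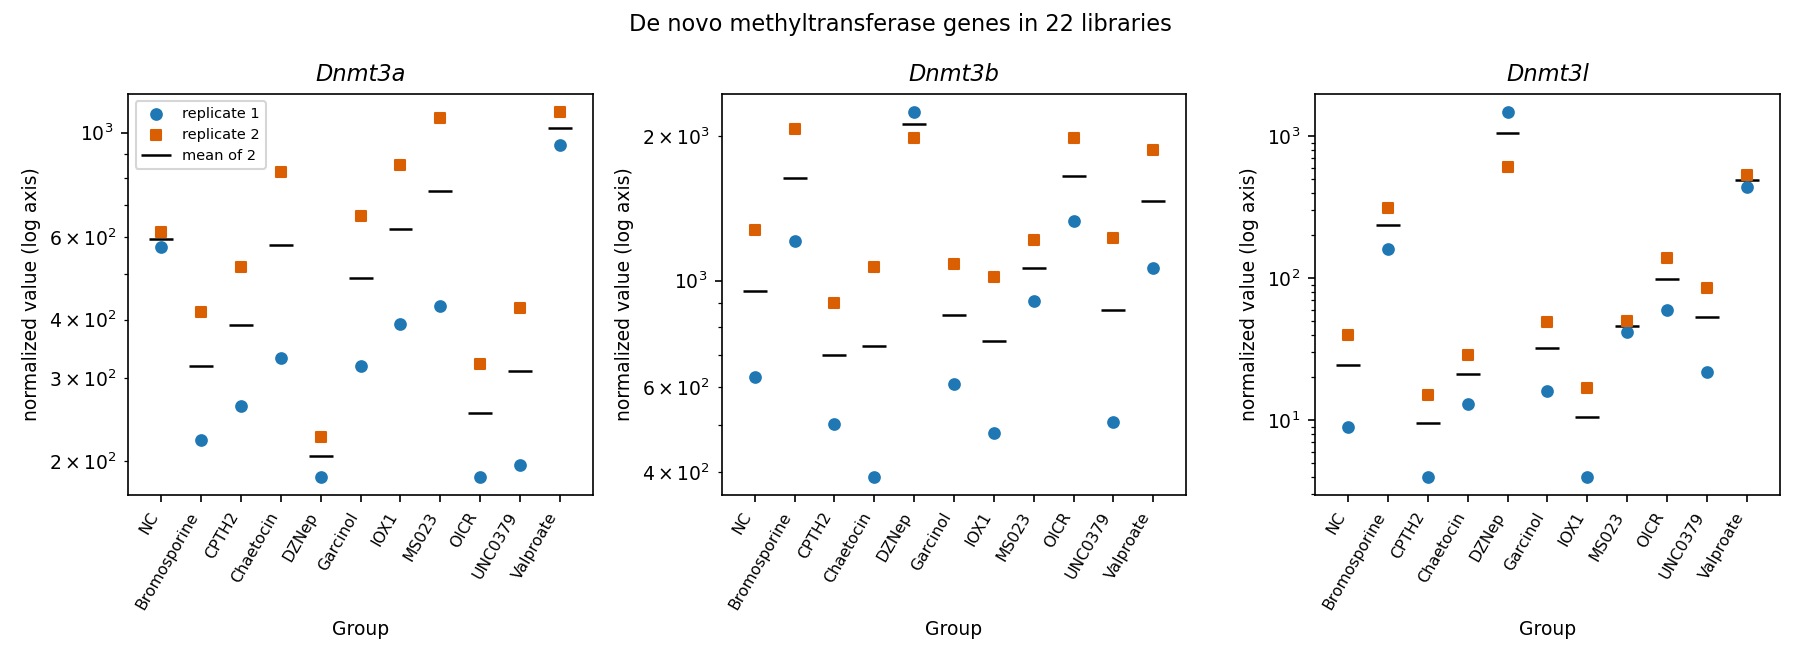
Normalized values (log axis) of *Dnmt3a*, *Dnmt3b* and *Dnmt3l* in each of the 22 libraries, with circles for replicate 1, squares for replicate 2 and a bar for the mean of the 2. *Dnmt3l* is highest with DZNep (1487 and 612) and is at 9 and 40 in NC, while *Dnmt3a* is lowest with DZNep (185 and 225).

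*Dnmt3a* and *Dnmt3b*, the catalytic de novo enzymes, differed from each other in these samples. *Dnmt3a* (chromosome 12, 3806007 to 3914443, plus strand) had values of 572 and 613 in NC, against 185 and 225 with DZNep. It stood at 185 and 322 with OICR, 222 and 414 with Bromosporine, and 196 and 424 with UNC0379. In all 4 of these groups, and with CPTH2 (262 and 517), both libraries lay below both NC libraries. Yet the log2 changes of -1.53 (interval -2.84 to -0.23, limma adjusted p 0.0851) with DZNep and -1.27 (limma adjusted p 0.481) with OICR did not pass the test. With the number in the library titles added to the fit, both were called (limma adjusted p 0.000942 with DZNep and 0.0268 with OICR). Within libraries numbered 1 and 2 the change was -1.62 and -1.44 with DZNep, and -1.62 and -0.93 with OICR. Valproate libraries, at 942 and 1108, were the only group wholly above NC, with a log2 change of 0.79 (interval -0.52 to 2.09, limma adjusted p 0.464).
The spread of *Dnmt3a* within a group was wide, from 427 to 1074 with MS023 and from 331 to 824 with Chaetocin. The higher value was in replicate 2 in 11 of 11 groups.

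*Dnmt3b* (chromosome 2, 153649450 to 153687730, plus strand) tended to lie on the other side of NC. NC libraries were at 630 and 1277, and those with DZNep at 2244 and 1980. With OICR it was at 1327 and 1975, with Bromosporine at 1209 and 2067, and with Valproate at 1061 and 1870. DZNep and OICR lay wholly above NC, and the log2 changes of 1.23 (interval -0.03 to 2.49, limma adjusted p 0.151) and 0.85 (limma adjusted p 0.71) did not pass. With the number in the library titles added to the fit, the DZNep change was called (limma adjusted p 0.00371) and the OICR change was not. Within numbers 1 and 2 the change was 1.83 and 0.63 with DZNep. Of its 31-base stretches, 15.6% occur in other transcripts, mainly those of *Dnmt3c*, a de novo gene of the male germline, so reads could have been split between them.

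Because the 2 genes come from the same library, their ratio sets aside shifts that both share. The ratio is not per length and is read only between libraries. *Dnmt3b* over *Dnmt3a* was 1.10 and 2.08 in NC, and 12.1 and 8.80 with DZNep. OICR gave 7.17 and 6.13, and Bromosporine 5.45 and 4.99. These 6 libraries lay above all the others, which ranged from 1.10 to 2.90, with UNC0379 nearest. Valproate, which raised *Dnmt3l*, left the ratio within the NC range at 1.13 and 1.69. Over the 11 group means, *Dnmt3b* and *Dnmt3l* had a correlation of 0.913 and *Dnmt3a* and *Dnmt3l* one of -0.239, both given as descriptions.

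Of the maintenance pair, *Dnmt1* showed the narrowest range of all 10 genes. *Dnmt1* (chromosome 9, 20907209 to 20959888, minus strand) had NC values of 15612 and 13829, and its log2 changes ran from -0.18 with Garcinol to 0.02 with Valproate. No 95% interval of a *Dnmt1* change was wider than 0.23 on either side of its estimate. *Uhrf1* (chromosome 17, 56303321 to 56323486, plus strand), which brings DNMT1 to hemimethylated DNA, had NC values of 21917 and 21274, against 15350 in both Valproate libraries. Equal values can arise from the quantile normalization. This was the lowest group, apart from every other, with a log2 change of -0.49 (SE 0.10, interval -0.70 to -0.29) and a limma adjusted p of 0.00544. It passed the adjusted p, as did 10.3% of genes with Valproate, but not the fold threshold. With DZNep *Uhrf1* was at 19201 and 17963 and with IOX1 at 18306 and 17963, both below NC, with log2 changes of -0.22 (limma adjusted p 0.119) and -0.25 (limma adjusted p 0.298). Libraries with Bromosporine (18732 in both) and Garcinol (20262 and 18306) also lay below NC, and neither change passed. *Uhrf1* shares 29.4% of its 31-base stretches with other transcripts.

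Of the TET dioxygenases, *Tet3* (ENSMUSG00000034832, chromosome 6, 83362373 to 83459084, minus strand) fell with DZNep. Its values were 580 and 523 in NC and 158 and 159 with DZNep, the lowest of all 22 libraries. The log2 change was -1.79 (SE 0.33, interval -2.51 to -1.07), a 3.46-fold fall (limma, Benjamini-Hochberg adjusted p 0.00181). Within number 1 the change was -1.87 and within number 2 it was -1.71, so the values lay close together. No single library decided this call, since the adjusted p stayed between 0.00972 and 0.0209 when each of the 4 libraries was left out. *Tet3* was next lowest with UNC0379 (269 and 426) and OICR (351 and 397), and with both compounds all libraries lay below NC. So did those with Bromosporine (382 and 509), CPTH2 (354 and 497) and Garcinol (359 and 462). For these 3 compounds the log2 change was -0.60, -0.71 and -0.69 within number 1, but only -0.04, -0.07 and -0.18 within number 2. *Tet3* was higher in number 2 in 10 of the 11 groups, and NC was the exception. No *Tet3* change other than that with DZNep passed, among them the log2 changes of -0.70 with UNC0379 (limma adjusted p 0.835) and -0.56 with OICR (limma adjusted p 0.619). Valproate, at 549 and 679, overlapped NC. The genes with the most similar group means were *Trmt2b* (r = 0.969), *Epb41l2* (0.967) and *Tmem206* (0.965), again over 11 groups and as a description.

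*Tet2* (chromosome 3, 133463679 to 133545139, minus strand) had NC values of 2478 and 2596, against 6368 and 2965 with DZNep, where the 2 libraries differed more from each other than the lower one did from NC. The log2 change of 0.78 (interval -0.10 to 1.65) had a limma adjusted p of 0.184, and without DZNep replicate 2 it became 1.33 and was called (adjusted p 0.0473). OICR libraries, at 3631 and 4051, were closer together and also above NC, with a log2 change of 0.60 (limma adjusted p 0.703). Valproate libraries were below NC at 1175 and 2265 (log2 -0.64, limma adjusted p 0.36). *Tet2* was also above NC with Bromosporine (2620 and 3366) and UNC0379 (2660 and 2953). *Tet2* and *Tet3* thus stood on opposite sides of NC with DZNep, OICR, Bromosporine and UNC0379, though only the *Tet3* change with DZNep passed.

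*Tet1* (chromosome 10, 62804570 to 62908996, minus strand) gave no comparison that passed, with log2 changes between -0.39 (DZNep) and 0.51 (MS023) and 95% intervals reaching 1.01 to either side. The values were 12635 and 8890 in NC. MS023 libraries were at 16296 and 14022 and those with Chaetocin lay above NC too. The DZNep libraries stood far apart, at 14325 and 4545, the latter the lowest *Tet1* value of the series. Changes of *Tet1* of less than about that width could not be resolved here.

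**Figure D4:**
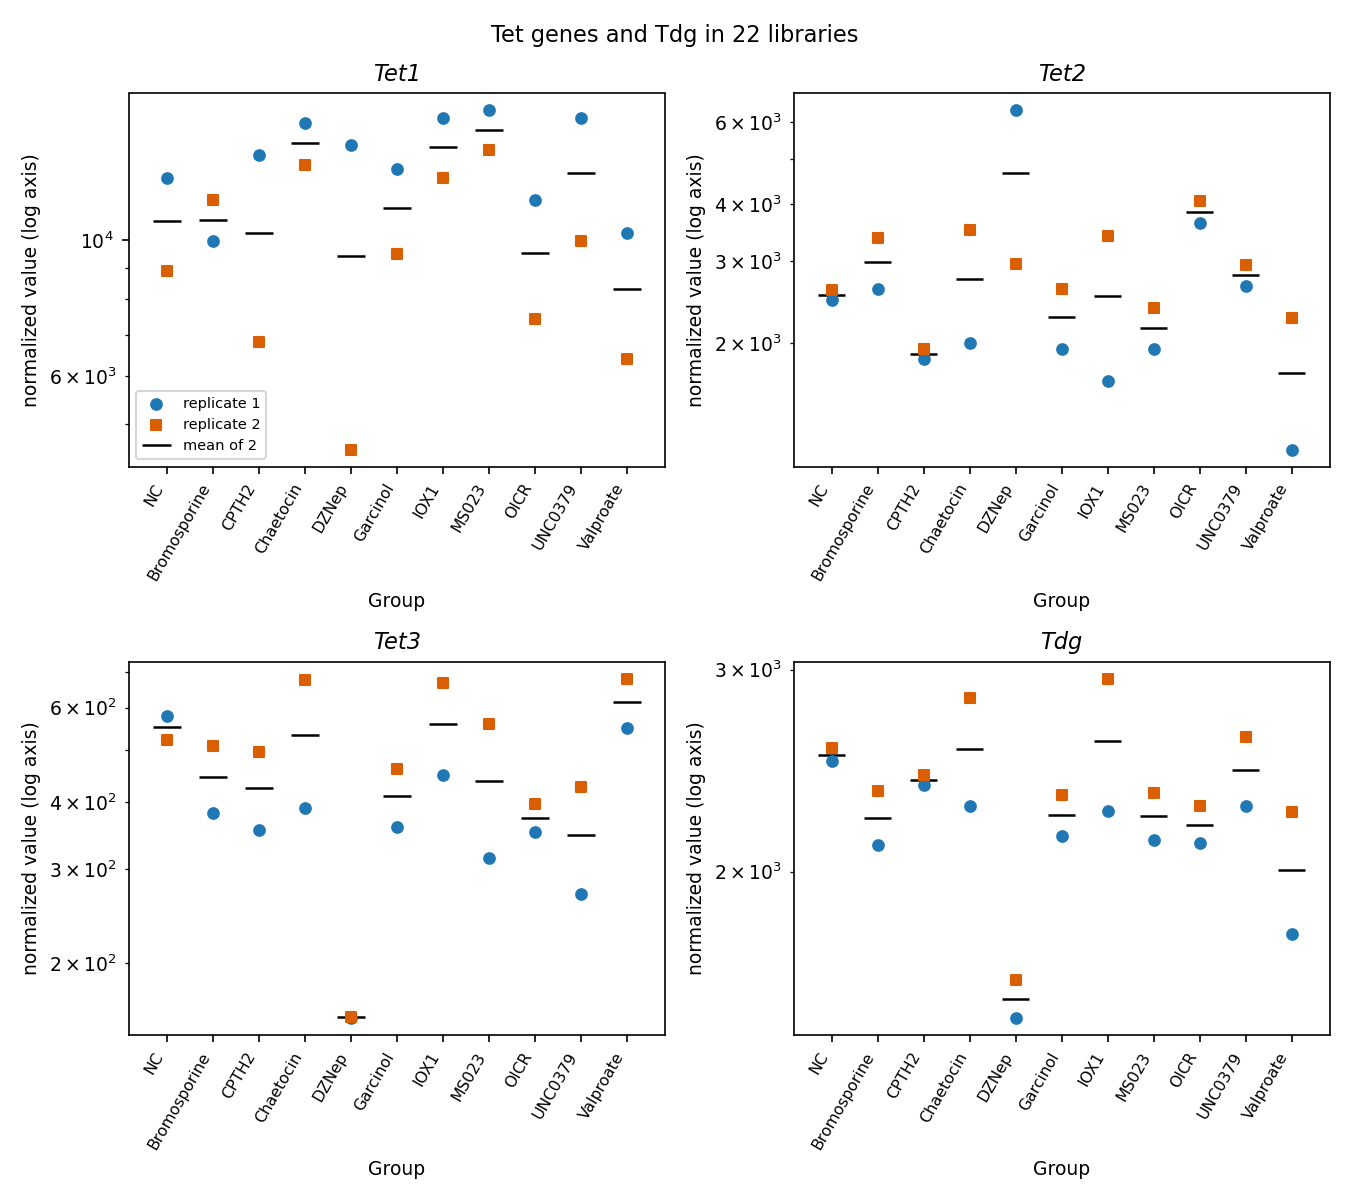
Normalized values (log axes) of *Tet1*, *Tet2*, *Tet3* and *Tdg* in each of the 22 libraries, with circles for replicate 1, squares for replicate 2 and a bar for the mean. Both DZNep libraries are lowest for *Tet3* (158 and 159) and *Tdg* (1490 and 1607), while for *Tet1* and *Tet2* the 2 DZNep libraries lie far apart.

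*Tdg* (chromosome 10, 82629828 to 82650799, plus strand), the glycosylase that removes oxidized methylcytosine, had NC values of 2496 and 2564, against 1490 and 1607 with DZNep. The DZNep libraries were the lowest of the series. A log2 change of -0.71 (SE 0.15, interval -1.03 to -0.39) had a limma adjusted p of 0.00399, which 23.6% of genes also passed with DZNep, and stayed short of the fold threshold. Valproate followed at 1764 and 2252, also below NC, with a log2 change of -0.34 (limma adjusted p 0.177). Libraries with Bromosporine, CPTH2, Garcinol, MS023 and OICR lay wholly below NC too, by less, and did not pass. *Tdg* shares 75.7% of its 31-base stretches with other transcripts, chiefly the near-identical copies *Tdg-ps* and *Gm9855*, so its value is uncertain. Both copies were lower with DZNep as well, *Tdg-ps* at 213 and 214 against 290 and 360 in NC, and *Gm9855* at 469 and 252 against 704 and 766.

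*Mbd3* (chromosome 10, 80392539 to 80399550, minus strand) had NC values of 4984 and 6247. It was lowest with Valproate, at 3735 and 4926, both below NC. The log2 change was -0.38 (interval -0.73 to -0.03) and did not pass (limma adjusted p 0.171). Its changes with the other 9 compounds lay between -0.07 and 0.16.

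Counting separation alone, 7 of the 10 genes had DZNep libraries that did not overlap NC (58.9% of all genes), with *Dnmt3b*, *Dnmt3l* and *Tet2* above and *Dnmt3a*, *Uhrf1*, *Tet3* and *Tdg* below. The count was 6 with Valproate (background 50.6%), 6 with Bromosporine (49.4%) and 6 with OICR (40.1%). Against such backgrounds these counts are given as a description. A moderated F test over the 11 groups was passed by 4 of the 10 genes, beside 29.7% of all tested genes: *Dnmt3l* (limma adjusted p 0.00094), *Uhrf1* (0.00862), *Tet3* (0.0198) and *Tdg* (0.0393). Without DZNep replicate 1, and likewise without DZNep replicate 2, only 2 passed.

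Most of these genes also differed by the number in the library titles. In a fit with group and number, 7 of the 10 differed between libraries numbered 2 and those numbered 1, as did 52.6% of all tested genes. *Dnmt3l* was higher by 1.05 on the log2 scale in number 2 (SE 0.27), *Dnmt3a* by 0.84 (SE 0.12), *Dnmt3b* by 0.81 (SE 0.12) and *Tet3* by 0.41 (SE 0.09). For *Dnmt3l* and for *Dnmt3b* this held in 10 of the 11 groups. The exception was DZNep, where numbers 1 and 2 were at 1487 and 612 for *Dnmt3l* and at 2244 and 1980 for *Dnmt3b*. *Mbd3* (0.19) and *Tdg* (0.18) were higher by less, and *Tet1* was lower by 0.56 (SE 0.13). The 7 limma adjusted p-values ran from 0.000142 (*Dnmt3a*) to 0.00584 (*Dnmt3l*). *Dnmt1*, *Uhrf1* and *Tet2* did not pass. What the numbers stand for was not stated, and every group held 1 library of each number. Calls of *Dnmt3a* and *Dnmt3b* depend on whether the number enters the fit, as given with the other settings.

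**Figure D5:**
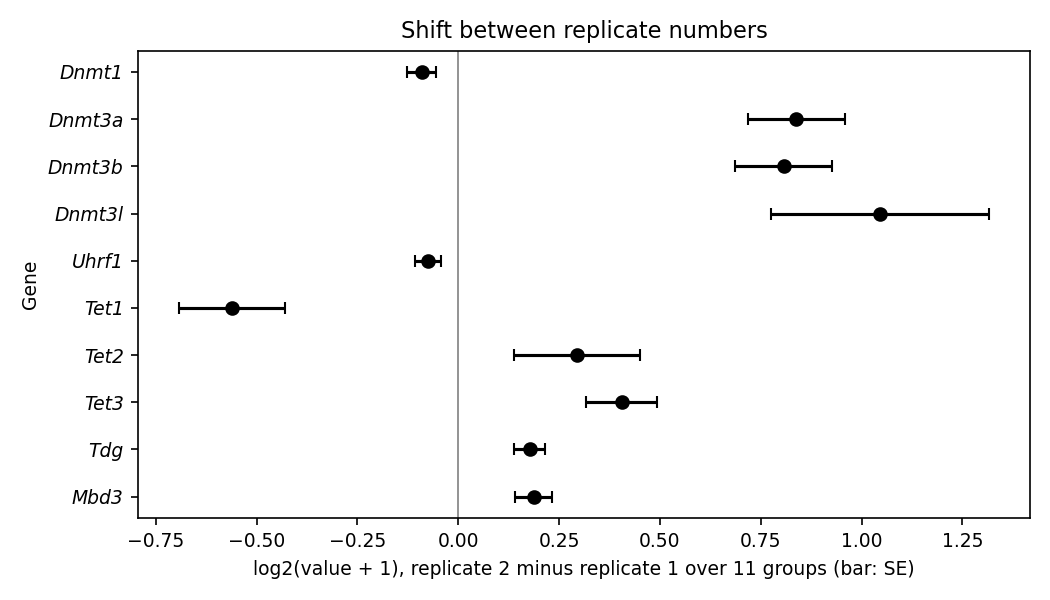
Difference between libraries numbered 2 and 1 for each gene on the log2(value + 1) scale, estimated over the 11 groups, with bars for the SE. The de novo genes *Dnmt3a*, *Dnmt3b* and *Dnmt3l* are higher in number 2 by 0.81 to 1.05, and *Tet1* is lower by 0.56. With DZNep alone, *Dnmt3b* and *Dnmt3l* were higher in number 1.

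Genes that work with the 10 were read from 5 further lists, with 75 genes tested. DZNep changed 8 of the 75 (10.7%, against 11.4% of all genes), 6 up and 2 down. Valproate changed 4 (5.33%), 2 up and 2 down, Bromosporine 1 and OICR 1, and the other 6 compounds 0. The DZNep count was 3 without NC replicate 1 and 5 without DZNep replicate 1, and the Valproate count 2 without Valproate replicate 1. These shares are near or below those of all tested genes, except for OICR, where 1 gene of 75 is 1.33%.
Among 20 genes of maintenance and recruitment, *Dppa3*, whose product keeps UHRF1 from chromatin, rose with Valproate from 194 and 160 to 3544 and 2894 (log2 4.18, SE 0.64, limma adjusted p 0.00132). *Nsd1*, a histone H3 lysine 36 methyltransferase, fell with Valproate from 13103 and 12113 to 5114 and 6952. *Zfp57*, which guards methylation at imprinted regions, rose with OICR from 7821 and 9304 to 18362 and 20309 (log2 1.18, SE 0.15, limma adjusted p 0.00397), a call lost without OICR replicate 2 (adjusted p 0.0546). It also rose with DZNep, to 19854 and 15958.
Among 9 readers of methylated CpG, *Zbtb4*, a zinc finger repressor with NC values of 296 and 217, fell to 107 and 93 with DZNep (log2 -1.34, SE 0.20, limma adjusted p 0.000385). With Valproate it fell to 94 and 93 (log2 -1.43, limma adjusted p 0.00071). Of the 11 other NuRD subunits, the deacetylase *Hdac2* rose with DZNep, from 5685 and 5871 to 13597 and 10924. Of 20 genes of demethylation and excision repair, *Idh2*, which makes the 2-oxoglutarate that TET enzymes use, fell with DZNep from 8671 and 5881 to 2894 and 3222.

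The last list held 15 germline genes known from other cells to be silenced by promoter methylation or by the factors that guide it. Like the other lists it was chosen with earlier results of these data known, so its shares and medians are given as a description. Many of the 15 genes were expressed without a compound, as 8 of the 15 had an NC mean above the median gene value of 409, among them *Dazl* at 6257 and 3591. With DZNep 4 of the 15 rose (26.7%, against 5.27% of all tested genes called up) and 0 fell, and the list's median log2 change was 0.87 against -0.04 for all genes. They were *Mael*, *Tdrd1* and *Piwil2*, all of the piRNA pathway, and *Tex101*, a germ cell surface protein. *Piwil2* had values of 701 and 694 with DZNep, against 295 and 264 in NC. *Mael*, at 534 and 1143 against 284 and 377 (limma adjusted p 0.0323), and *Tdrd1*, at 140 and 115 against 43 and 41 (limma adjusted p 0.0446), were close to the threshold. All 4 had NC values below that of the median gene. *Tex101* reached 87 and 80 with DZNep, against 0 and 7 in NC (log2 4.90, SE 1.18, limma adjusted p 0.00866), and lost its call without NC replicate 1 (log2 3.40, adjusted p 0.12). Its size depends on values close to 0. With Valproate only *Brdt*, a testis bromodomain gene, was called, from 44 and 44 to 450 and 507, and the list's median was 0.55 against -0.02. Bromosporine lowered *Taf7l*, a germ cell transcription factor subunit, from 205 and 248 to 99 and 77 (log2 -1.36, SE 0.35, limma adjusted p 0.0417), which was lost when any of the 4 libraries was left out (adjusted p 0.112 to 0.202), and the list's median there was -0.66 against 0.01. With MS023 0 of the 15 were called. The list's summed value there was 30050 and 28746, against 21280 and 19095 in NC and 36382 and 28409 with DZNep. Much of these sums was *Dazl* alone, at 12119 and 8710 with MS023, 6257 and 3591 in NC and 14700 and 6955 with DZNep. The list's median log2 change with MS023 was 0.21, against -0.01 for all genes. DNA methylation itself was not measured.

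Markers of other cell types moved in the groups where *Dnmt3l* rose. The fibroblast sum was 528 and 1368 in NC, 1612 and 1874 with DZNep and 1554 and 1422 with Valproate, but 682 and 613 with Bromosporine. These sums rest in large part on *Col3a1* and *Postn*, whose values could differ widely inside a group. *Col3a1* was at 4 and 743 in NC, and *Postn* at 658 and 0 with Valproate. Of the 6 fibroblast markers tested, 2 were called up with DZNep, 2 up with Valproate and 1 down with Bromosporine, where 11.4%, 5.28% and 3.34% of all genes were called. The trophoblast sum was 372 and 284 in NC, 1257 and 1226 with DZNep, 810 and 552 with Valproate and 227 and 189 with Bromosporine, and of 5 markers 2 were called up with DZNep, 0 with Valproate and 2 down with Bromosporine. For primitive endoderm the sums were 454 and 364 in NC, 467 and 739 with DZNep, 417 and 554 with Valproate and 374 and 242 with Bromosporine. Of those 5 markers, *Dab2* and *Pdgfra* were called up and *Gata4* down with DZNep, *Pdgfra* up with Valproate and 0 with Bromosporine. The ESC markers did not move together. Their sum was 248087 and 240917 in NC, 307233 and 296802 with DZNep, 271848 and 277227 with Valproate and 271589 and 256752 with Bromosporine. *Utf1* was called up in all 3 groups and *Zfp42* with DZNep, and 0 of the 10 were called down. *Utf1* was also called up with OICR (3309 and 3915, against 1283 and 1467 in NC), where *Dnmt3l* was not called. With DZNep *Nanog* was at 92251 and 123367, above 44793 and 59405 in NC, whereas *Tdgf1* (11541 and 8477, against 25722 and 15640) and *Dppa5a* (28606 and 30833, against 41903 and 39262) lay below NC without overlap. With Valproate *Pou5f1* (25663 and 27731, against 28606 and 29454) and *Esrrb* (22913 and 24752, against 28640 and 26729) lay below NC. The part of these markers in the changes of *Dnmt3l* and *Tet3* was not tested. In bulk RNA a different share of cells and a different level per cell cannot be told apart.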

How the data were processed

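RNA was measured by poly(A) RNA-seq in 22 libraries (11 groups of 2). Sample titles gave the group and the number of each library. The deposited values are scores, here gene values that the authors normalized to a common distribution and rounded to whole numbers. The submitters' processing notes name Bowtie2 2.2.5, RSEM and mm10, and the study's methods, which do not mention the compounds, name EDASeq at its full setting. That step hides depth and any change shared by most genes and can make values equal between libraries. The values are not counts, so no count model was used. A second deposited table holds the authors' means of 2 libraries, whose largest gap to the means of the first is 0, and is not drawn on here.

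Values were analysed as log2(value + 1) with limma 3.58.1 in R 4.3.3. A gene entered the fit (17275 of 18487) with values of 10 or more in 2 or more of the 22 libraries. A model of 11 group means was fitted to all libraries with a variance trend and 11 residual degrees of freedom. P-values are two-sided, with Benjamini-Hochberg adjustment inside each comparison, and calls needed an adjusted p under 0.05 and a fold change over 2. The script was tested on simulated data. The 10 genes and all lists were chosen with earlier results of these data known. From the 5 further lists, the called genes that rose most and fell most were named per compound, and for each called member the 3 genes of mean at least 100 with the most alike group means. *Nsd1*, *Hdac2*, *Idh2*, *Mael*, *Tdrd1*, *Piwil2*, *Brdt* the DZNep value of *Zfp57*, *Dazl* and the single markers were added after their values were seen. Positions and shared 31-base stretches came from GENCODE M21 (GRCm38). Promoter windows came from RefSeq, where all 10 genes matched with 17 windows. Python 3.11.15 with numpy 2.4.6, pandas 2.3.3 and matplotlib 3.10.9 drew the plots and read the sequences.

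Other settings tried were no filter, a pseudocount of 10, the replicate number as a block, median-ratio rescaling, the mean of the other groups as reference, adjustment over all 10 comparisons, a fit of the compound and NC libraries only, and leaving out each library in turn.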

Additional observations from a re-analysis of the deposited data

How the results depend on the processing

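The 4 calls kept their direction under all 11 alternatives tried for each. *Dnmt3l* with DZNep and *Tet3* with DZNep lost the call only when the compound and NC libraries alone were fitted (limma adjusted p 0.0927 and 0.0706), a fit with fewer samples. The *Dnmt3l* call with Bromosporine was lost under 6 of the 11 (limma adjusted p 0.00316 to 0.346) and that with Valproate under 2 (0.000303 to 0.165). In that small fit the number of the 10 genes called fell to 0 with Bromosporine, DZNep and Valproate, and calls over the 5 further lists to 0 with Bromosporine, 0 with DZNep, 0 with OICR and 1 with Valproate. Over all genes it gave 97 calls for DZNep (1970 reported), 75 for Valproate (912) and 128 for Bromosporine (577).

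Same-numbered libraries were compared by the correlation of their deviations from the group means. With NC this was 0.0836 to 0.183 (median 0.162, 8 of 10 over 0.1), and over all 55 pairs of groups 51 were over 0.1 (median 0.196). The number thus carries a shift common to most groups, but not every pair passed 0.1 and no label says what is shared, so the libraries were not treated as paired. With the replicate number as a block, 4 of the 10 genes were called with DZNep (*Dnmt3a* at a limma adjusted p of 0.000942 and *Dnmt3b* at 0.00371 in addition), 1 with OICR (*Dnmt3a*, 0.0268), and 7 passed the F test. Calls over the further lists became 3 with Bromosporine, 3 with MS023, 2 with OICR and 1 with IOX1, and over all genes the block gave 1189 calls for Bromosporine, 1487 for Valproate, 484 for MS023, 274 for OICR, 217 for IOX1, 35 for Chaetocin and 11 for UNC0379. Calls over all genes thus rose too, from 577 with Bromosporine and from 67 with OICR in the main fit. The block's shares of all genes for DZNep and for the F test are not given here. The counts of 4 and 7 are therefore a description only.

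Against the mean of the other groups, 0 of the 10 genes were called with Bromosporine and 2 with Valproate (*Dnmt3a* in addition, limma adjusted p 0.0448), and the further lists had 3 calls with Bromosporine, 2 with MS023 and 0 with OICR. *Dnmt3l* then changed sign with Garcinol (-1.06), MS023 (-0.31) and UNC0379 (-0.39), none of them called. Adjustment over all 10 comparisons left 0 of the 10 genes and 0 further genes called with Bromosporine, and 5 further genes with DZNep. Median-ratio rescaling gave 2 further genes with Bromosporine and moved the median of all genes by at most 0.05 (log2).

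Leaving out single libraries gave 0 to 1 of the 10 genes called with Bromosporine, 2 to 3 with DZNep and 0 to 1 with Valproate, and 2 to 4 that passed the F test, with 2 when either DZNep library was absent. Over the further lists it gave 0 to 2 calls with Bromosporine, 3 to 10 with DZNep, 0 to 1 with MS023, 0 to 1 with OICR and 2 to 5 with Valproate. Uncalled log2 changes that turned sign ran from -0.0056 to 0.32 (*Mbd3*, Bromosporine), -1.20 to 0.25 (*Dnmt3b*, Chaetocin), -1.22 to 0.43 (*Tet1*, DZNep), -0.49 to 1.54 (*Dnmt3l*, Garcinol), -0.16 to 0.22 (*Tdg*, IOX1), -0.071 to 0.10 (*Dnmt1*, Valproate) and -0.0046 to 0.30 (*Tet3*, Valproate). The cause of these dependences was not tested. Depth is unknown, so no detection limit could be given for low genes such as *Dnmt3l*.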
